A study of Mus musculus with 21 samples.

Results

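The genes described here are 9 hematopoietic growth factor receptor genes of the mouse, namely Csf1r, Csf2ra, Csf2rb, Csf2rb2, Csf3r, Il3ra, Kit, Flt3 and Il6ra. They were chosen by name among the 45706 Ensembl genes counted in each library, and all 9 were among the 19555 genes with enough counts to be tested. RNA was sequenced from mice that model juvenile myelomonocytic leukemia (JMML), a leukemia of early childhood, in 3 sorted fractions: LSK cells of the BM (lineage-negative cells with Sca1 and cKit on the surface, which hold the stem and progenitor cells), CD11b+ myeloid cells of the BM and CD11b+ myeloid cells of the spleen. In each fraction there were 2 libraries labelled MxCre (the Cre transgene with normal Ptpn11), 2 labelled Ptpn11D61Y/+ (the mutant Ptpn11 allele without Cre) and 3 labelled S3 MxCre;Ptpn11D61Y/+ (terminally ill leukemic mice that carry both). Ages are not in the labels. According to the methods, poly I:C was given to all mice. LSK cells were sorted after lineage depletion, and CD11b+ cells were isolated with a MACS kit on columns. Both are called sorted fractions here. In mice without Cre the mutant allele stays silenced by a stop cassette. Cre is driven by the interferon-inducible Mx promoter, which also acts outside the blood. Total counts ran from 34992610 to 104509425 per library, and the counts of a single receptor gene ran from 105 to 295499.

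Growth factor receptors read out the cytokines that keep hematopoietic cells alive and drive them into a lineage. Csf1r, Kit and Flt3 are receptor tyrosine kinases for M-CSF and IL-34, stem cell factor and Flt3 ligand. The other genes encode cytokine receptor chains without a kinase of their own. Csf3r forms the G-CSF receptor, Csf2ra and Il3ra bind GM-CSF and IL-3 and signal through the common beta chain Csf2rb, and Il6ra binds IL-6 and signals through gp130. Mice carry an additional beta chain, Csf2rb2, which serves IL-3 alone. The phosphatase SHP-2, the product of Ptpn11, acts downstream of many of these receptors and passes their signal on to RAS. Hypersensitivity of progenitor cells to GM-CSF is a hallmark of JMML.

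The beta chain genes lie next to each other in GRCm38, with Csf2rb at chr15:78325752-78353847 on the plus strand and Csf2rb2 at chr15:78282507-78305721 on the minus strand. Their coding starts are shown because reads of one gene can match the other. These are the first 90 coding bases of each gene in the GENCODE annotation, with the 3 bases that differ in capitals.
Csf2rb: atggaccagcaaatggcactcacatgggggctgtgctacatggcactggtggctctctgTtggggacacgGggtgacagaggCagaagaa
Csf2rb2: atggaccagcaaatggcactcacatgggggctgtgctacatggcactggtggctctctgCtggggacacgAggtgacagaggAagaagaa
The longest stretch without a difference between the coding sequences was 242 bases. Of the 4665 windows of 100 bases in the main Csf2rb transcript, 334 (7.16%) were also found in Csf2rb2 transcripts. How the authors counted reads with more than 1 match is not given in the sources used here, so the split between these genes is uncertain, and a value of one gene is best read beside that of the other. The ligand-binding chain Csf2ra lies at chr19:61223957-61228429 and Il3ra at chr14:14346275-14356011. Csf3r lies at chr4:126024550-126044440, Kit at chr5:75574916-75656722, Flt3 at chr5:147330741-147400489 and Il6ra at chr3:89864059-89913196. Exons of Csf1r overlap an exon of Hmgxb3 on the other strand and exons of Il6ra one of Gm42809. Whether strand was used in counting is not given in the sources used here, and without it reads of the overlapping genes cannot be told apart.

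Markers of the sorted fractions were examined first. All 9 stem and progenitor markers had counts in all 7 LSK libraries, with summed levels between 912.4 and 1461 CPM (counts relative to the library size, scaled by TMM), against 22.0 to 410.6 CPM in the CD11b+ libraries. The list holds Kit and Ly6a, the genes of the LSK gate, and the other 7 markers summed to between 520.5 and 872.7 CPM in LSK and between 5.90 and 27.2 CPM in CD11b+ libraries. Itgam, which encodes CD11b, lay between 150.7 and 1665 CPM in the CD11b+ libraries and between 31.6 and 114.2 CPM in LSK cells. Several libraries stood apart. Spleen MxCre replicate 1, 1 of the 2 MxCre libraries behind the spleen comparisons, had 14641 genes with counts, against 18353 to 22483 in the other spleen libraries, and BM MxCre replicate 1 (14885) and BM S3 animal 815 (14761) were similarly low, against 17493 to 22865 in the other BM CD11b+ libraries. BM MxCre replicate 1 had 14320 CPM of summed macrophage markers, against 429.3 to 2971 CPM in the other BM CD11b+ libraries. The spleen libraries labelled Ptpn11D61Y/+ had 4489 and 8301 CPM of mature neutrophil markers, against 41280 to 128700 CPM in the other spleen libraries. The LSK libraries labelled MxCre had 2815 and 2359 CPM of the same markers, against 182.3 to 1444 CPM in the other LSK libraries. By Xist, which is expressed in female cells, libraries that share a number did not always match: S3 animal 540 had 1 count in LSK cells, 2780 in the BM and 712 in the spleen. Among the MxCre libraries numbered 2, the counts were 9 in LSK cells, 2834 in the BM and 4 in the spleen, and among the Ptpn11D61Y/+ libraries numbered 1 they were 17, 1 and 4753. Comparisons that take these numbers as 1 animal therefore serve only as an alternative. As the libraries are bulk RNA of sorted fractions, fewer cells of a type and less RNA per cell cannot be told apart.

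**Figure D1:**
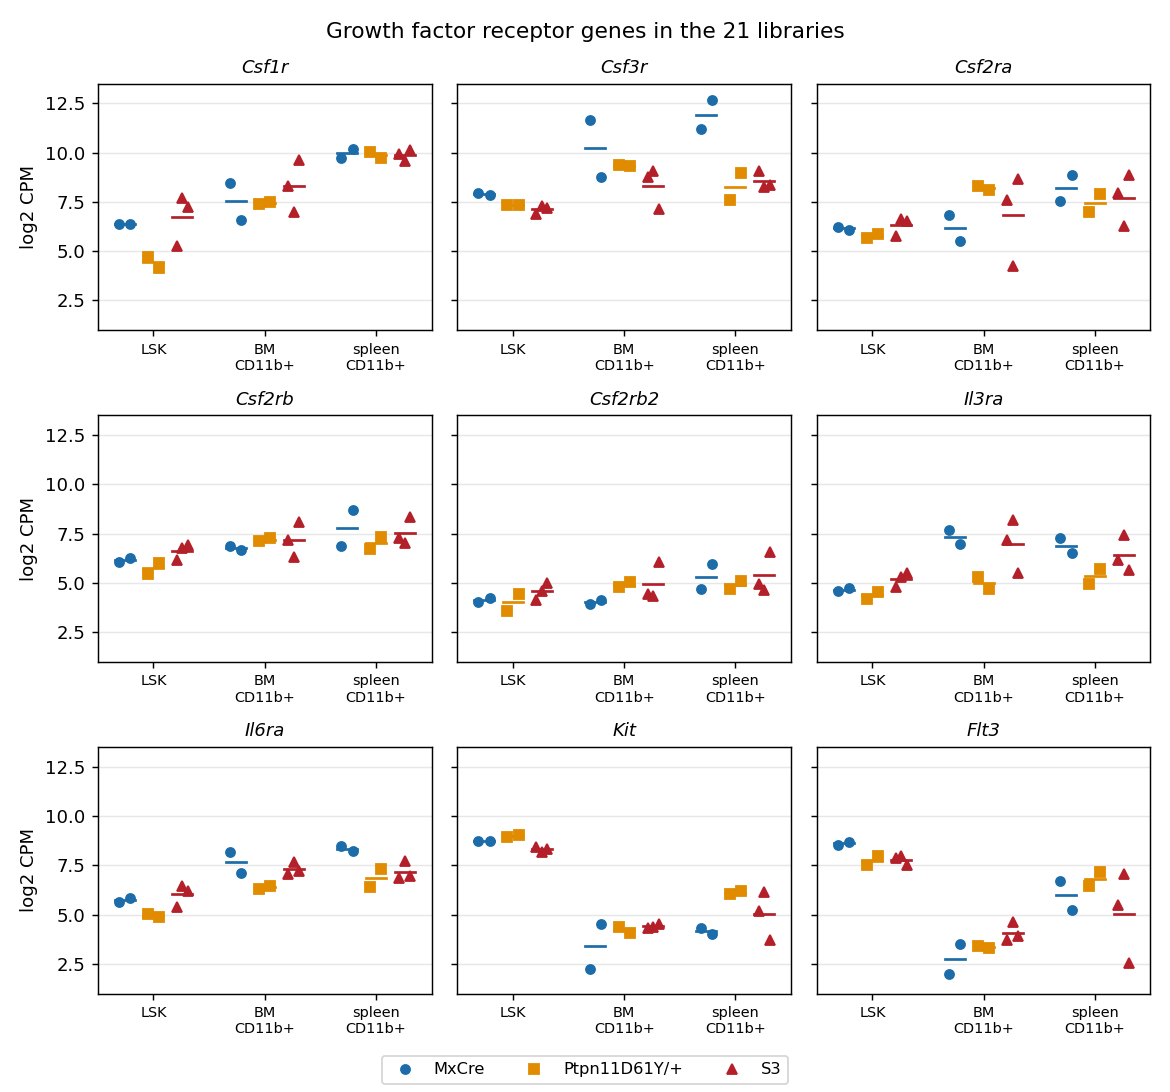
Level of each receptor gene (log2 CPM) in the 21 libraries, by sorted fraction on the x axis and genotype by colour and symbol. Each symbol is 1 library and each line the group mean. Kit and Flt3 are highest in LSK cells, Csf1r is highest in the spleen at between 9.57 and 10.17, and the 3 highest Csf3r values, from 11.21 to 12.65, are those of MxCre CD11b+ libraries.

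The comparison of fractions asks where the receptors are expressed along the way from progenitor to myeloid cell. Kit was part of the LSK gate, so its difference is given without a test and the counts of fractions are over the other 8 receptors. In BM CD11b+ against LSK cells, averaged over the genotypes, 6 of 8 receptors were called higher and 1 lower, where 58.4% of all tested genes were called. In spleen CD11b+ against LSK cells, 7 of 8 were called higher and 1 lower, against 59.9% of all genes. Most genes thus differed between these fractions. By direction, 26.8% of all genes were called higher and 31.6% lower in the BM, and 28.3% and 31.6% in the spleen. The median log2 fold change of the 8 receptors was 1.44 in the BM and 1.72 in the spleen, where the medians of all tested genes were -0.17 and -0.14. Only 2 of 8 receptors were called between spleen and BM CD11b+ cells, Csf1r and Flt3, both higher in the spleen, against 14.0% of all genes in either direction and 6.56% called higher.

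Csf1r, the M-CSF receptor of monocytes and macrophages, rose stepwise from LSK to spleen. It ranged from 4.16 to 7.71 log2 CPM in LSK cells (median 6.36, n = 7), from 6.61 to 9.64 in BM CD11b+ cells (median 7.52) and from 9.57 to 10.17 in spleen CD11b+ cells (median 9.93). The spleen libraries all lay above the LSK libraries, whereas the BM libraries overlapped with LSK cells at their low end and with the spleen at their high end. The log2 fold change was 3.96 (SE 0.465, adjusted p = 4.89e-06) for spleen against LSK cells, 2.03 (SE 0.425, adjusted p = 0.000867) for BM against LSK cells and 1.93 (SE 0.423, adjusted p = 0.00766) for spleen against BM. The spread in the spleen was small, with an SD of 0.23 log2 units over the 7 libraries of all genotypes, against 1.03 in the BM and 1.31 in LSK cells.

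Flt3, the receptor of Flt3 ligand on early progenitors and dendritic cells, showed the opposite order between LSK and BM cells. It lay between 7.5 and 8.69 log2 CPM in LSK cells (median 7.95), between 1.98 and 4.61 in BM CD11b+ cells (median 3.51) and between 2.55 and 7.14 in spleen CD11b+ cells (median 6.48). Every LSK library lay above every CD11b+ library. The log2 fold change was -4.58 (SE 0.546, adjusted p = 6.32e-06) for BM and -1.73 (SE 0.476, adjusted p = 0.00547) for spleen against LSK cells. Between the CD11b+ fractions Flt3 was higher in the spleen by 2.84 (SE 0.500, adjusted p = 0.00223), although S3 animal 640, at 2.55 in the spleen, lay within the BM range. Among the spleen libraries, the sum of 7 dendritic cell markers was also lowest in animal 640, at 2499 CPM. It lay between 6185 and 23640 CPM in the other 6. Across the 14 CD11b+ libraries, which share their fractions, the log2 sum correlated with Flt3 at r = 0.835. Other marker sums did so too, among them those of NK cells (0.683), stem and progenitor cells (0.605), promyelocytes (-0.662) and erythroid cells (-0.708). The part of dendritic or other cells in the Flt3 difference was not tested.

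Kit, the receptor of stem cell factor, ranged from 8.17 to 9.06 log2 CPM in LSK cells, from 2.26 to 4.54 in BM CD11b+ cells and from 3.70 to 6.20 in spleen CD11b+ cells. The LSK libraries lay above all others, as the gate sets. The differences were -4.53 for BM and -3.48 for spleen against LSK cells on the log2 scale. The gate does not bear on spleen against BM CD11b+ cells, between which Kit was 1.05 higher in the spleen (SE 0.338, adjusted p = 0.0496), with overlapping libraries. Kit was thus narrowly called there too, which the count of called receptors above leaves out.

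Of the chains for GM-CSF and IL-3, the ligand-binding Csf2ra was 1.31 log2 units higher in BM CD11b+ than in LSK cells (SE 0.508, adjusted p = 0.0360) and 1.87 higher in the spleen (SE 0.517, adjusted p = 0.00564). Its BM libraries were widely scattered (SD 1.62), from 4.25 in S3 animal 815 to 8.68 in S3 animal 640 (median 7.57), and overlapped with the LSK range of 5.64 to 6.66. The BM call for Csf2ra was lost without any 1 of 9 libraries, with adjusted p up to 0.116 without BM MxCre replicate 1, and with the animal or number as a replicate block (log2 fold change 0.79, adjusted p = 0.175), limma-voom (1.02, adjusted p = 0.126) or no filter on low counts (1.26, adjusted p = 0.0871). Il3ra, the IL-3 binding chain, rose by 1.82 in the BM (SE 0.368, adjusted p = 0.00068) and by 1.56 in the spleen (SE 0.365, adjusted p = 0.00185). It lay between 4.2 and 5.49 log2 CPM in LSK cells, between 4.71 and 8.19 in BM and between 4.96 and 7.45 in spleen CD11b+ cells. The CD11b+ libraries within the LSK range were 3 of the 4 labelled Ptpn11D61Y/+.

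The common beta chain Csf2rb lay between 5.45 and 6.90 log2 CPM in LSK cells, between 6.32 and 8.09 in the BM and between 6.72 and 8.70 in the spleen. It was higher by 0.92 in BM (SE 0.323, adjusted p = 0.0232) and by 1.39 in spleen CD11b+ cells (SE 0.327, adjusted p = 0.00189) than in LSK cells. Its BM call was lost without any 1 of 5 libraries, with adjusted p up to 0.0780 without LSK Ptpn11D61Y/+ replicate 1, and with library size alone in place of TMM it was 0.11 (adjusted p = 0.809). The IL-3 specific beta chain Csf2rb2 was higher in the spleen by 1.06 (SE 0.355, adjusted p = 0.0173), a call lost without any 1 of 4 libraries, with adjusted p up to 0.0821 without spleen MxCre replicate 2. With library size alone the spleen calls of Csf2ra (1.12, adjusted p = 0.0877), Csf2rb (0.62, adjusted p = 0.146) and Csf2rb2 (0.31, adjusted p = 0.519) and the BM call of Csf2ra (0.53, adjusted p = 0.415) were lost too. In the BM the difference of Csf2rb2 from LSK cells, 0.44, missed the threshold (adjusted p = 0.293). Csf2rb2 made up a median of 19.7% of the counts of both beta chain genes in LSK cells (18.06% to 25.03%), 16.4% in the BM (11.4% to 20.1%) and 17.7% in the spleen (12.9% to 22.4%). Given the shared coding stretches, these shares are those of the authors' counting.

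Csf3r, the G-CSF receptor of the neutrophil lineage, was called higher in BM (2.11, SE 0.419, adjusted p = 0.00058) and spleen CD11b+ cells (2.26, SE 0.422, adjusted p = 0.000323) than in LSK cells. It lay between 6.88 and 7.93 log2 CPM in LSK cells, between 7.16 and 11.65 in the BM and between 7.60 and 12.65 in the spleen, so that the lowest CD11b+ libraries fell into the LSK range. Il6ra, the IL-6 binding chain, rose by 1.56 in the BM (SE 0.241, adjusted p = 7.09e-05) and by 1.90 in the spleen (SE 0.244, adjusted p = 1.13e-05). Its libraries ranged from 4.89 to 6.47 log2 CPM in LSK cells, from 6.28 to 8.19 in the BM and from 6.40 to 8.46 in the spleen, and the CD11b+ libraries within the LSK range were those labelled Ptpn11D61Y/+ replicate 1.

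**Figure D2:**
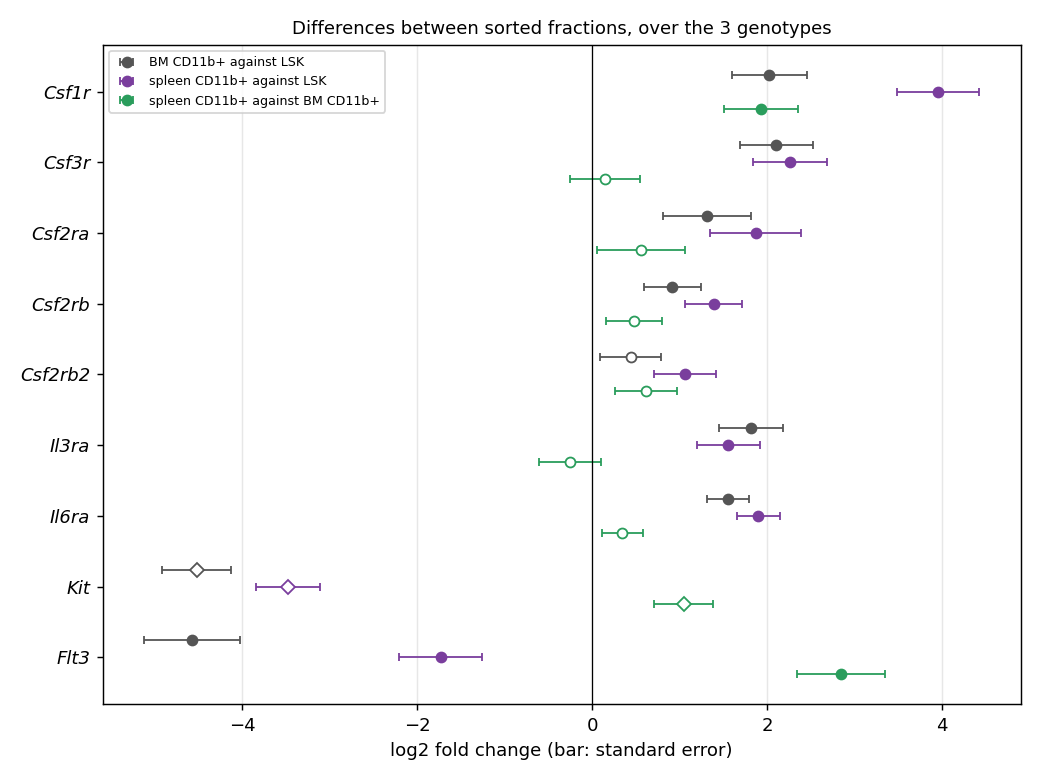
Log2 fold change of each receptor gene between sorted fractions, averaged over the 3 genotypes, with bars of 1 standard error. Filled circles were called at an adjusted p under 0.05, open circles were not, and diamonds mark Kit, which was part of the LSK gate. Kit and Flt3 lie left of zero against LSK cells and the other genes right of it.

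Levels of different genes were compared per kilobase of exon (log2 CPM per kb, from the union of annotated exons). In LSK cells the order of the medians was Kit (5.59), Csf3r (5.502), Flt3 (5.33), Csf2ra (4.57), Csf1r (3.83), Csf2rb (3.31), Il3ra (3.18), Il6ra (2.55) and Csf2rb2 (2.0). Each of these overlapped with its neighbour in range over the 7 libraries. By group means the first place differed between genotypes. Csf3r was first in MxCre (6.04, against 5.992 for Flt3 and 5.597 for Kit) and in S3 (5.267, against 5.164 and 5.155). Kit was first in Ptpn11D61Y/+ (5.835, against 5.508 for Csf3r). In BM CD11b+ cells the order was Csf3r (7.21), Csf2ra (6.05), Il3ra (5.40), Csf1r (4.99), Csf2rb (4.25), Il6ra (4.001), Csf2rb2 (2.19), Kit (1.22) and Flt3 (0.88), and among neighbours only Csf2rb2 and Kit did not overlap. By group means Csf2ra was next to first only in Ptpn11D61Y/+ (6.70). In MxCre it was at 4.65, below Il3ra (5.75) and Csf1r (5), and in S3 at 5.31, below Csf1r (5.78) and Il3ra (5.39). In spleen CD11b+ cells Csf1r stood first (7.40), followed by Csf3r (7.11), Csf2ra (6.36), Il3ra (4.58), Csf2rb (4.42), Il6ra (4.199), Flt3 (3.85), Csf2rb2 (2.72) and Kit (2.01), with overlap between all neighbours. These medians span genotypes that differed in Csf3r: in spleen MxCre Csf3r was first (mean 10.08 log2 CPM per kb, against 7.43 for Csf1r), and Csf1r was above it in Ptpn11D61Y/+ (7.34 against 6.43) and S3 (7.35 against 6.72). By these pooled medians the receptor tyrosine kinases did not keep together in the order. Csf1r was first and Kit last in the spleen, whereas Kit was first in LSK cells with Csf1r in the middle. By group means Kit led LSK cells in Ptpn11D61Y/+ alone. Csf3r was first or next to first in all 3 fractions.

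Between genotypes, S3 against MxCre asks what the receptors do in leukemic mice. In spleen CD11b+ cells 1 of the 9 receptors was called, Csf3r, which was lower, where 4.19% of all tested genes were called and 2.67% were called lower. Csf3r was at 11.21 and 12.65 log2 CPM in the MxCre libraries, at 7.60 and 8.96 in those labelled Ptpn11D61Y/+ and at 9.07, 8.27 and 8.37 in S3 animals 540, 815 and 640. The MxCre libraries were high and did not overlap with any other spleen library, while the other genotypes overlapped with each other. The log2 fold change was -3.49 for S3 against MxCre (SE 0.693, adjusted p = 0.0137) and -3.67 for Ptpn11D61Y/+ against MxCre (SE 0.819, adjusted p = 0.0215), and these comparisons share their MxCre libraries. Csf3r was also the only receptor called in the latter comparison, in which 5.11% of all genes were called and 3.02% were called lower. Between S3 and Ptpn11D61Y/+ the difference was within the spread of the libraries, and 0 of 9 receptors were called by edgeR, limma-voom and DESeq2, with 0 at an unadjusted p under 0.05, where 0.00511% of all genes were called. Libraries overlapped for all 9 receptors there, while 21.7% of all genes did not overlap.

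The lower Csf3r rested on few control libraries. Without spleen MxCre replicate 2, the library with the highest value, the log2 fold change was -2.58 in S3 (adjusted p = 0.0672) and -2.77 in Ptpn11D61Y/+ (adjusted p = 0.0877). The call in Ptpn11D61Y/+ was also lost without its replicate 1 (-3.11, adjusted p = 0.258) or its replicate 2 (-4.51, adjusted p = 0.0518). Leaving out any other spleen library of MxCre or S3 kept the S3 call. It was lost when only the groups compared were fitted (-3.56, adjusted p = 0.109) and with both control genotypes as 1 group (-2.60, adjusted p = 0.278), and the smaller fit also ended the call in Ptpn11D61Y/+ (-3.66, adjusted p = 0.0652).

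Markers of mature neutrophils, the cells in which Csf3r is best known, were examined beside it. Their summed level was 68630 and 128700 CPM in the spleen MxCre libraries, 4489 and 8301 CPM in those labelled Ptpn11D61Y/+, and 94310, 43440 and 41280 CPM in S3 animals 540, 815 and 640. All 10 markers had counts in each spleen library. In Ptpn11D61Y/+ against MxCre, 7 of the 10 were called lower (median log2 fold change -3.63), among them S100a8 (-4.26, adjusted p = 0.0117) and Cxcr2 (-3.26, adjusted p = 0.0329). In S3 against MxCre, 9 of the 10 had a negative log2 fold change (median -0.62, against 0.32 for all genes), with 0 called by edgeR and 1 lower at an unadjusted p under 0.05, and S3 animal 540 lay within the MxCre range of the sum. Erythroid markers were higher in the spleen of S3, with sums of 10750, 10000 and 20640 CPM against 1933 and 785 CPM in MxCre and 3520 and 834.9 CPM in Ptpn11D61Y/+. Of these 6 markers 2 were called higher in S3 against MxCre (median log2 fold change 3.65), Alas2 and Hbb-bs. Of 5 basophil and mast cell markers 1 was called higher, Prss34 (median 2.24), and their sum was 110.1, 118.6 and 14.1 CPM in S3 animals 540, 815 and 640 against 8.77 and 2.55 CPM in MxCre. The part of these cells in the Csf3r difference was not tested.

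**Figure D3:**
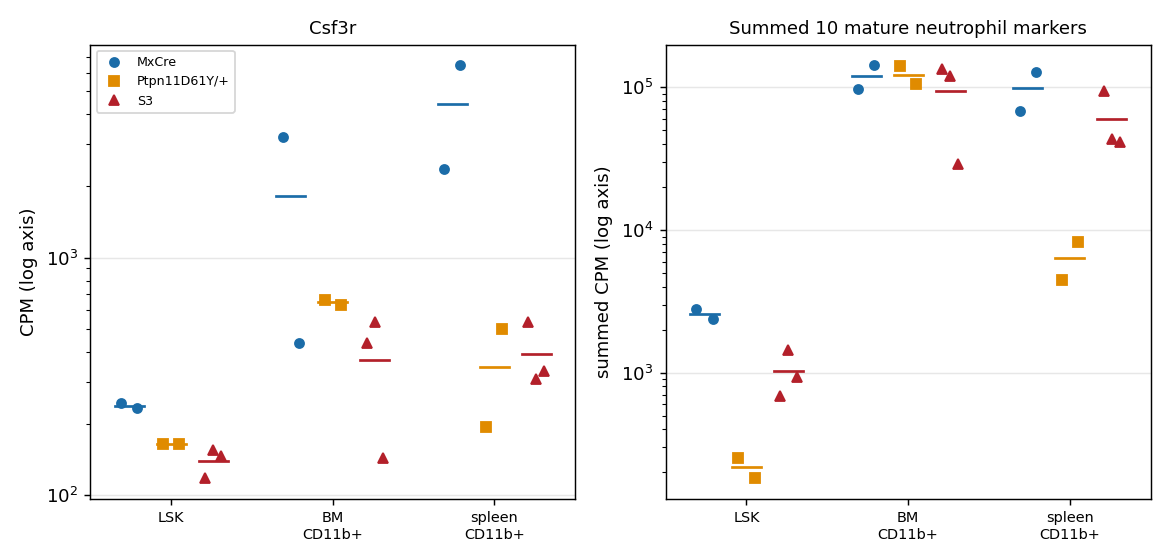
CPM of Csf3r (left) and summed CPM of 10 mature neutrophil markers (right) in the 21 libraries, on log axes, by fraction and genotype, with lines at the group means. In the spleen, Csf3r is low in S3 and Ptpn11D61Y/+ libraries, whereas the marker sum is low in Ptpn11D61Y/+ libraries, at 4489 and 8301 CPM, and between 41280 and 94310 CPM in S3.

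The relation of Csf3r to Csf1r in the spleen turned with genotype. On the log2 scale Csf3r exceeded Csf1r by 1.46 and 2.48 in the MxCre libraries, whereas it lay below Csf1r in all other spleen libraries, by -2.43 and -0.75 in Ptpn11D61Y/+ and by -0.86, -1.31 and -1.76 in S3 animals 540, 815 and 640. Csf1r itself did not separate the genotypes in the spleen, with 9.75 and 10.17 log2 CPM in MxCre, 10.02 and 9.71 in Ptpn11D61Y/+, and 9.93, 9.57 and 10.14 in S3. The change in the ratio thus lay in Csf3r. These ratios are not per length and serve only to compare libraries.

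Of the other receptors in the spleen, Il6ra was at 8.46 and 8.25 log2 CPM in MxCre, at 6.40 and 7.31 in Ptpn11D61Y/+ and at 6.86, 7.72 and 6.96 in S3 animals 540, 815 and 640. The MxCre libraries again lay above all others. The difference did not pass the threshold in S3 (-1.12, SE 0.389, adjusted p = 0.0972) or in Ptpn11D61Y/+ (-1.43, SE 0.441, adjusted p = 0.0687), although DESeq2 called it in both (adjusted p = 0.0474 and 0.0241) and limma-voom in Ptpn11D61Y/+ (-1.50, adjusted p = 0.0389). Kit was at 4.32 and 4.01 log2 CPM in MxCre, at 6.03 and 6.19 in Ptpn11D61Y/+ and at 5.17, 6.18 and 3.70 in S3, which gave 1.95 for Ptpn11D61Y/+ against MxCre (SE 0.634, adjusted p = 0.0799) and 1.17 for S3 against MxCre (SE 0.581, adjusted p = 0.220). DESeq2 called Kit in Ptpn11D61Y/+ (adjusted p = 0.0203), as did the fit of only the groups compared (adjusted p = 0.0492) and library size alone (2.55, adjusted p = 0.0313). S3 animals spanned both control groups. Of the 9 stem and progenitor markers, Kit among them, 7 were positive in Ptpn11D61Y/+ against MxCre and 2 negative (median 1.595, 5 higher at an unadjusted p under 0.05). In S3 against MxCre 6 were positive and 3 negative (median 0.23), with 0 called by edgeR in either comparison. The part of such cells in the Kit values was not tested. Libraries did not overlap for 2 of 9 receptors in S3 against MxCre and for 4 of 9 in Ptpn11D61Y/+ against MxCre, at 33.1% and 55.9% of all tested genes. Il3ra differed by -1.56 between Ptpn11D61Y/+ and MxCre (SE 0.670, adjusted p = 0.165) and by 1.25 between S3 and Ptpn11D61Y/+ (SE 0.623, adjusted p = 0.599), and Csf2rb by -1.01 between Ptpn11D61Y/+ and MxCre (SE 0.594, adjusted p = 0.299). The latter turned to 0.20 without spleen MxCre replicate 2.

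In BM CD11b+ cells no gene at all was called between genotypes by edgeR (0% of tested genes in each of the 3 comparisons), while 3022 genes had an unadjusted p under 0.05 in S3 against MxCre. Csf3r was at 11.65 and 8.77 log2 CPM in MxCre, at 9.38 and 9.30 in Ptpn11D61Y/+ and at 8.77, 9.06 and 7.16 in S3 animals 540, 815 and 640. The high value was that of BM MxCre replicate 1, the library with many macrophage transcripts, and the other MxCre library lay among the S3 libraries. The log2 fold change was -2.29 for S3 (SE 0.671, adjusted p = 0.205), and DESeq2 called it (-2.40, adjusted p = 0.0218). It was -0.23 (adjusted p = 0.955) without BM MxCre replicate 1 and -3.10 (adjusted p = 0.00703) without BM MxCre replicate 2, so this value depends on which control library is used. For Ptpn11D61Y/+ against MxCre it was -1.49 (SE 0.752, adjusted p = 0.243), 0.58 (adjusted p = 0.776) without BM MxCre replicate 1 and -2.29 (adjusted p = 0.0380), past the threshold, without BM MxCre replicate 2.

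Il3ra in the BM was at 7.67 and 6.97 log2 CPM in MxCre, at 5.30 and 4.71 in Ptpn11D61Y/+ and at 7.18, 8.19 and 5.51 in S3. The libraries labelled Ptpn11D61Y/+ were the lowest 2 and did not overlap with either of the other genotypes. The difference was -2.33 for Ptpn11D61Y/+ against MxCre (SE 0.687, adjusted p = 0.164) and 2.30 for S3 against Ptpn11D61Y/+ (SE 0.655, adjusted p = 0.467). DESeq2 called both (adjusted p = 0.0174 and 0.0238), and edgeR called the first without BM MxCre replicate 2 (-2.61, adjusted p = 0.0378). The sum of 5 basophil and mast cell markers, led by Prss34 in MxCre and S3, was 30.6 and 16.8 CPM in MxCre, 4.17 and 3.13 CPM in Ptpn11D61Y/+ and 487.7, 155.9 and 117.8 CPM in S3 animals 540, 815 and 640. Of these markers 0 were called in the BM, with a median log2 fold change of 5.603 for S3 against Ptpn11D61Y/+ (3 of 5 higher at an unadjusted p under 0.05) and -0.14 for Ptpn11D61Y/+ against MxCre (2 of 5 lower). Il6ra showed a similar order, with 8.19 and 7.11 in MxCre, 6.28 and 6.48 in Ptpn11D61Y/+ and 7.06, 7.69 and 7.22 in S3, and a difference of -1.36 between Ptpn11D61Y/+ and MxCre (SE 0.440, adjusted p = 0.164). It was called by DESeq2 (-1.52, adjusted p = 0.0311) and without BM MxCre replicate 2 (-1.79, adjusted p = 0.0216). Over the fits that left out 1 library, this Il6ra difference ranged from -1.79 to -0.71. The sum of macrophage markers was 14320 and 461.7 CPM in MxCre, 429.3 and 456.4 CPM in Ptpn11D61Y/+ and 1570, 1879 and 2971 CPM in S3. BM MxCre replicate 2 thus lay close to Ptpn11D61Y/+, and the difference of the sum from MxCre lay in BM MxCre replicate 1. All 8 markers were negative in Ptpn11D61Y/+ against MxCre (median -4.07, 6 at an unadjusted p under 0.05). All were positive in S3 against Ptpn11D61Y/+ (median 1.44, 4 at an unadjusted p under 0.05), with 0 called by edgeR in either comparison. The part of basophils, mast cells or macrophages in the Il3ra and Il6ra differences was not tested. In contrast, Csf2ra was higher in the libraries labelled Ptpn11D61Y/+ (8.31 and 8.12) than in MxCre (6.81 and 5.54), with S3 on both sides (7.57, 4.25 and 8.68), and none of its differences passed the threshold: 1.91 for Ptpn11D61Y/+ against MxCre (SE 0.949, adjusted p = 0.238) and 1.38 for S3 against MxCre (SE 0.878, adjusted p = 0.444). Itgam was also higher in both comparisons, by 1.78 (at an unadjusted p under 0.05) and 1.15, without a call. Over the 14 CD11b+ libraries Itgam correlated with Csf2ra at r = 0.76, and its part in the Csf2ra values was not tested. In S3 against MxCre, Csf2rb2 and Flt3 were 1.13 and 1.20 higher (adjusted p = 0.374 and 0.470), and Csf1r was 1.23 higher in S3 than in Ptpn11D61Y/+ (adjusted p = 0.658). Leaving out 1 library brought these down to as little as 0.35, 0.64 and 0.33, and the S3 difference of Csf2ra from MxCre to 0.40. Without a call, libraries did not overlap for 2, 4 and 5 of 9 receptors in S3 against MxCre, S3 against Ptpn11D61Y/+ and Ptpn11D61Y/+ against MxCre, at 11.2%, 26.1% and 57.7% of all genes. At an unadjusted p under 0.05 there were 1, 2 and 2 of the 9 receptors, by limma-voom 0 were called in each, and by DESeq2 1, 1 and 2. The share of all genes called in the BM is that of edgeR, and that of DESeq2 is not given here.

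In LSK cells 0 of 9 receptors were called in any of the 3 genotype comparisons by edgeR, where 0.0307% of all genes were called in S3 against MxCre, 0.0972% in S3 against Ptpn11D61Y/+ and 0.0614% in Ptpn11D61Y/+ against MxCre. At an unadjusted p under 0.05 there were 0, 2 and 1 receptors, limma-voom called 0 in each and DESeq2 0, 1 and 0. The shares of all genes called by limma-voom and DESeq2 are not given here. The widest separation was that of Csf1r, at 6.36 and 6.38 log2 CPM in MxCre, at 4.70 and 4.16 in Ptpn11D61Y/+ and at 5.25, 7.71 and 7.23 in S3 animals 540, 815 and 768. The libraries labelled Ptpn11D61Y/+ were below all others, and S3 animal 540 was below both MxCre libraries. Csf1r differed by 2.60 between S3 and Ptpn11D61Y/+ (SE 0.761, adjusted p = 0.398; by DESeq2 adjusted p = 0.0380) and by -1.92 between Ptpn11D61Y/+ and MxCre (SE 0.775, adjusted p = 1). Il6ra lay in the same order, at 5.66 and 5.84 in MxCre, 5.02 and 4.89 in Ptpn11D61Y/+ and 5.41, 6.47 and 6.22 in S3, with 1.14 for S3 against Ptpn11D61Y/+ (SE 0.410, adjusted p = 0.635).

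Transcripts of mature myeloid cells differed between these LSK libraries as well. Itgam was at 114.2 and 102.0 CPM in MxCre, at 32.4 and 31.6 in Ptpn11D61Y/+ and at 42.3, 94.5 and 69.4 in S3 animals 540, 815 and 768. Against MxCre, 5 of 10 neutrophil markers were called lower in Ptpn11D61Y/+, where 10 of 10 had a negative log2 fold change (median -5.67), and 2 of 10 in S3 (Mmp8 and Mmp9), where 9 of 10 were negative (median -2.18). In S3 against Ptpn11D61Y/+, 10 of 10 were positive (median 2.15), with 9 at an unadjusted p under 0.05 and 0 called by edgeR. Itgam was 1.10 higher there, and 7 of 7 dendritic cell markers were positive (median 1.605, 2 at an unadjusted p under 0.05), without a call. Macrophage markers summed to 135.3 and 154.4 CPM in MxCre, to 58.5 and 60.5 CPM in Ptpn11D61Y/+ and to 154.1, 150.4 and 161.9 CPM in S3 animals 540, 815 and 768, and monocyte markers to 217.2 and 143.3, to 179.9 and 150.9 and to 195.8, 498.9 and 627.7 CPM. Like Csf1r, the macrophage sum was lowest in Ptpn11D61Y/+ and the monocyte sum highest in animals 815 and 768, while Itgam and the neutrophil markers were highest in MxCre. None of the 8 macrophage or 6 monocyte markers was called, with median log2 fold changes of 2.18 and 1.81 for S3 against Ptpn11D61Y/+, of -2.11 and -0.53 for Ptpn11D61Y/+ against MxCre and of -0.12 and 1.35 for S3 against MxCre. At an unadjusted p under 0.05, 4 macrophage and 3 monocyte markers were higher in S3 than in Ptpn11D61Y/+, 4 and 1 lower in Ptpn11D61Y/+ than in MxCre, and 0 and 2 higher in S3 than in MxCre. Basophil and mast cell markers, with 0 of 5 called by edgeR, 5 of 5 at an unadjusted p under 0.05 and a median of 4.09 for S3 against MxCre, summed to 1126, 628.5 and 718.6 CPM in S3, to 110.7 and 238.2 CPM in Ptpn11D61Y/+ and to 53.5 and 47.0 CPM in MxCre. The part of such cells or their RNA in the receptor values was not tested. Kit and Flt3, the receptors of the progenitors themselves, spanned 8.17 to 9.06 and 7.5 to 8.69 log2 CPM over all LSK libraries. Kit was lowest in the 3 S3 libraries (8.44, 8.17 and 8.32, against 8.76 and 8.75 in MxCre and 8.92 and 9.06 in Ptpn11D61Y/+) and Flt3 highest in the MxCre libraries (8.55 and 8.69), without a call by any of the 3 tools in the fit of all libraries. The sum of the 9 stem and progenitor markers, of which Kit is one, was also lowest in S3, at 1026, 942.5 and 912.4 CPM against 1302 and 1346 CPM in MxCre and 1398 and 1461 CPM in Ptpn11D61Y/+. Of these, 7 of 9 were negative in S3 against MxCre (median -0.70, 1 at an unadjusted p under 0.05) and 8 of 9 in S3 against Ptpn11D61Y/+ (median -1.45, 2 at an unadjusted p under 0.05), with 0 called by edgeR, and their part in the Kit values was not tested. When only the groups compared were fitted, Csf3r, Kit and Flt3 were called in S3 against MxCre, Il3ra and Kit in S3 against Ptpn11D61Y/+, and Csf1r, Csf2ra, Csf3r, Flt3 and Il6ra in Ptpn11D61Y/+ against MxCre. The shares of all genes called in these smaller fits are not given here, so these calls are not read as a result about the receptors. Libraries did not overlap for 4, 6 and 8 of 9 receptors in S3 against MxCre, S3 against Ptpn11D61Y/+ and Ptpn11D61Y/+ against MxCre, at 57.9%, 59.5% and 57.7% of all genes.

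**Figure D4:**
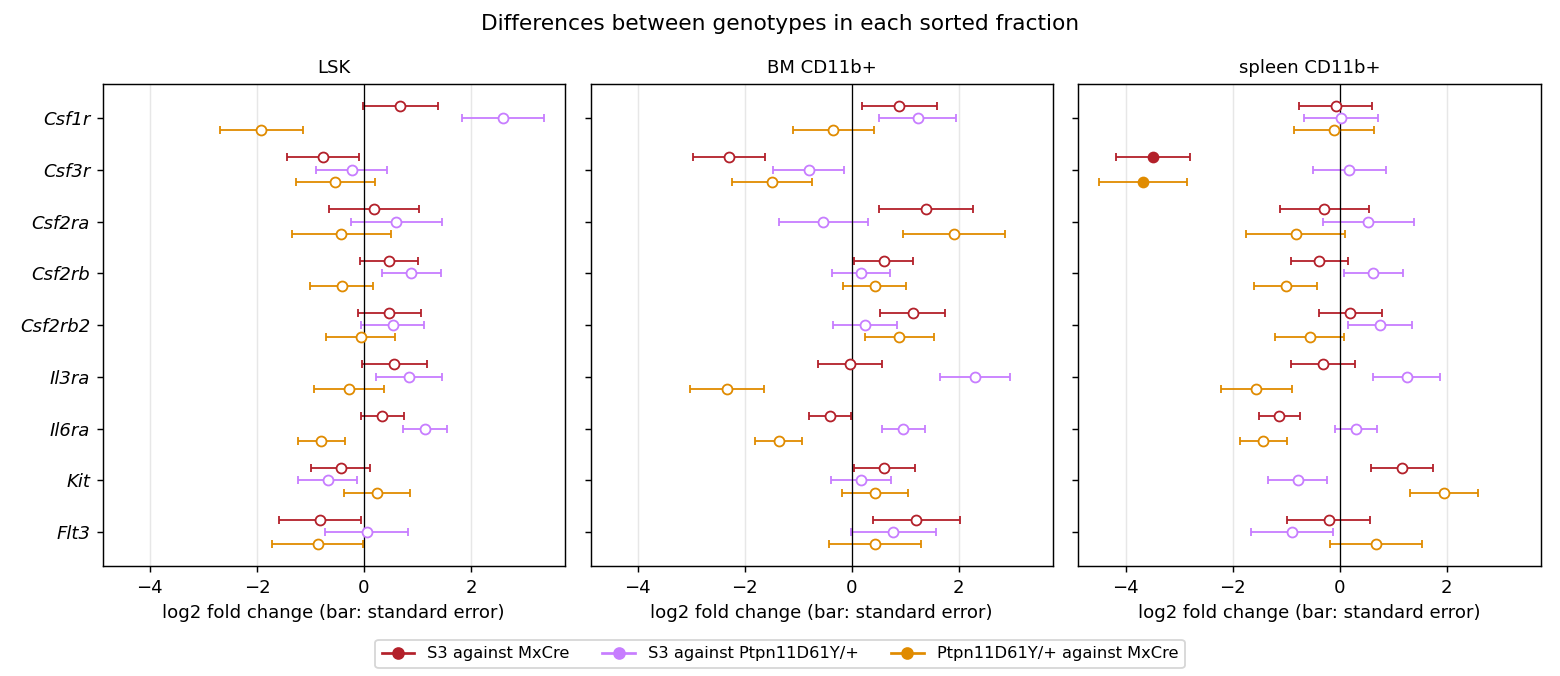
Log2 fold change of each receptor gene between genotypes in LSK, BM CD11b+ and spleen CD11b+ cells, with bars of 1 standard error. Filled circles were called at an adjusted p under 0.05 and open circles were not. The only filled circles are those of Csf3r in the spleen, at -3.49 for S3 and -3.67 for Ptpn11D61Y/+ against MxCre.

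An interaction term compared the S3 effect of one fraction with that of another. By edgeR 0 of 9 receptors were called in each of the 3 tests, where 0% of all genes were called for BM against LSK cells, 0.00511% for spleen against LSK cells and 0% for spleen against BM. At an unadjusted p under 0.05 there were 0, 2 and 0 receptors, and limma-voom and DESeq2 called 0 in each. The lowest adjusted p was that of Csf3r, whose change was lower by -2.72 in the spleen than in LSK cells (SE 0.970, adjusted p = 0.280). Without the 3 CD11b+ libraries with the fewest detected genes this was -3.27. Spleen MxCre replicate 2, which had the highest Csf3r, was then the only spleen MxCre library. A called Csf3r in the spleen beside uncalled ones in LSK and BM cells is therefore not shown to be particular to the spleen.

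The genes around the receptors were followed in 4 lists: other cytokine receptors, ligands, adaptors with kinases and phosphatases, and STAT with feedback genes. Of the 11 ligand genes only 5 were tested, since Csf3, Il3, Il5, Thpo and Epo had at most 16 counts in any library and 1 gene of the list was not matched by its symbol. In spleen CD11b+ cells of S3 against MxCre, 1 of 5 tested ligands was called lower (median log2 fold change -3.07, against 0.32 for all genes), 1 of 15 other cytokine receptors higher (median -0.36), 0 of 15 adaptors, kinases and phosphatases (median 0.14) and 2 of 10 STAT and feedback genes lower (median -0.56), where 4.19% of all genes were called and 2.67% called lower.

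The ligand was Csf1, which encodes M-CSF, the partner of Csf1r. In the spleen it was at 7.96 and 8.99 log2 CPM in MxCre, at 4.77 and 5.98 in Ptpn11D61Y/+ and at 4.18, 3.73 and 3.48 in S3 animals 540, 815 and 640. Both MxCre libraries lay above all others and the S3 libraries below all others. Csf1 fell by 4.74 on the log2 scale in S3 against MxCre (SE 0.847, adjusted p = 0.00920), and the call was kept in all 5 fits that left out 1 of these libraries. It was lost when only the groups compared were fitted (adjusted p = 0.0778) and when both control genotypes formed 1 group (adjusted p = 0.190). In the BM, MxCre replicate 1 had 8.09 log2 CPM of Csf1 and the other 6 libraries between 3.10 and 4.47.

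Pim1, a kinase gene induced by STAT signaling, was at 12.67 and 12.52 log2 CPM in the spleen MxCre libraries, at 8.66 and 10.38 in Ptpn11D61Y/+ and at 8.29, 9.17 and 8.65 in S3. The MxCre libraries were above all others. Pim1 fell by 3.85 in S3 (SE 0.655, adjusted p = 0.00777), a call kept in all 5 fits that left out 1 library. It was lost when only the groups compared were fitted (-3.92, adjusted p = 0.102) and with both control genotypes as 1 group (-3.04, adjusted p = 0.190). In Ptpn11D61Y/+ it fell by 2.83 (SE 0.736, adjusted p = 0.0381), a call lost without either MxCre library or Ptpn11D61Y/+ replicate 1 (adjusted p = 0.0955, 0.0763 and 0.321), with library size alone (-2.27, adjusted p = 0.0519) and when only the groups compared were fitted (0.0841). Stat3, the main STAT of the G-CSF and IL-6 receptors, was at 9.41 and 9.67 in MxCre, at 8.12 and 8.11 in Ptpn11D61Y/+ and at 8.25, 8.50 and 8.17 in S3. It fell by 1.24 in S3 (adjusted p = 0.0321) and by 1.43 in Ptpn11D61Y/+ (adjusted p = 0.0290). The S3 call on Stat3 was lost without any 1 of 4 spleen libraries, MxCre replicate 1 (adjusted p = 0.0816), MxCre replicate 2 (0.107), animal 540 (0.0877) or animal 640 (0.0717), and the Ptpn11D61Y/+ call without MxCre replicate 2 (0.0915) or without Ptpn11D61Y/+ replicate 1 (0.244) or 2 (0.100). Both Stat3 calls were also lost with library size alone (-0.80 in each, adjusted p = 0.111 in S3 and 0.139 in Ptpn11D61Y/+), without a filter on low counts (0.0671 and 0.0516) and when only the groups compared were fitted (0.244 and 0.110). The S3 call was lost with both control genotypes as 1 group (-0.69, adjusted p = 0.586) and the Ptpn11D61Y/+ call with the replicate block (-1.43, adjusted p = 0.0565). In the BM, MxCre replicate 1 had 11.62 log2 CPM of Pim1 and the other libraries between 8.37 and 9.20. Of the 10 mature neutrophil markers, 7 were called lower in the spleen of Ptpn11D61Y/+ (median -3.63) and 0 in that of S3 (median -0.62). The part of neutrophils in the Pim1 and Stat3 differences was not tested.

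Il7r, the IL-7 receptor of lymphoid cells, was the receptor of the first list that was called higher. It was low, at -0.65 and -1.91 log2 CPM in the spleen MxCre libraries, at 1.998 and 1.41 in Ptpn11D61Y/+ and at 0.66, 1.20 and 1.38 in S3, and rose by 2.33 in S3 (adjusted p = 0.0299) and by 2.96 in Ptpn11D61Y/+ (adjusted p = 0.0154). The S3 call on Il7r was lost without MxCre replicate 2 (adjusted p = 0.128), animal 540 (0.0503) or animal 640 (0.0592), and the Ptpn11D61Y/+ call without MxCre replicate 2 (0.0782) or Ptpn11D61Y/+ replicate 1 (0.191). When only the groups compared were fitted both were lost (0.351 and 0.135), and the S3 call was lost with limma-voom (0.0808), without a filter on low counts (0.0551) and with both control genotypes as 1 group, where the difference was 0.19 (adjusted p = 0.957). The sum of B cell markers was 194.8 and 88.7 CPM in MxCre, 1211 and 1895 CPM in Ptpn11D61Y/+ and 827.8, 759.6 and 73.5 CPM in S3 animals 540, 815 and 640. In Ptpn11D61Y/+ against MxCre 2 of the 4 were called higher, and all 4 had an unadjusted p under 0.05 (median log2 fold change 3.59). In S3 against MxCre 4 of 4 were positive (median 1.99), with 0 called by edgeR and 2 at an unadjusted p under 0.05. Among the S3 libraries animal 640 had the highest Il7r and the lowest sum. T cell markers summed to 7.67 and 12.4 CPM in MxCre, with Cd3e and Cd3g at 0 counts in replicate 1, to 20.9 and 17.2 CPM in Ptpn11D61Y/+ and to 17.1, 34.4 and 5.25 CPM in S3, with 0 of 4 called, 1 higher at an unadjusted p under 0.05 in each comparison with MxCre, and median log2 fold changes of 2.25 in S3 and 2.44 in Ptpn11D61Y/+ against MxCre. The part of these cells in the Il7r difference was not tested. Dusp6, a feedback phosphatase of the ERK pathway, fell by 2.29 in Ptpn11D61Y/+ against MxCre (adjusted p = 0.0334), a call lost without MxCre replicate 1 (adjusted p = 0.102), MxCre replicate 2 (0.0603) or Ptpn11D61Y/+ replicate 1 (0.314), with the replicate block (-2.43, adjusted p = 0.0550) and when only the groups compared were fitted (0.0700). In Ptpn11D61Y/+ against MxCre the lists had 0 of 5 ligands, 1 of 15 other receptors higher, 0 of 15 adaptors and 3 of 10 STAT and feedback genes lower, where 5.11% of all genes were called and 3.02% called lower. In all BM comparisons of genotypes no gene of the 4 lists was called.

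**Figure D5:**
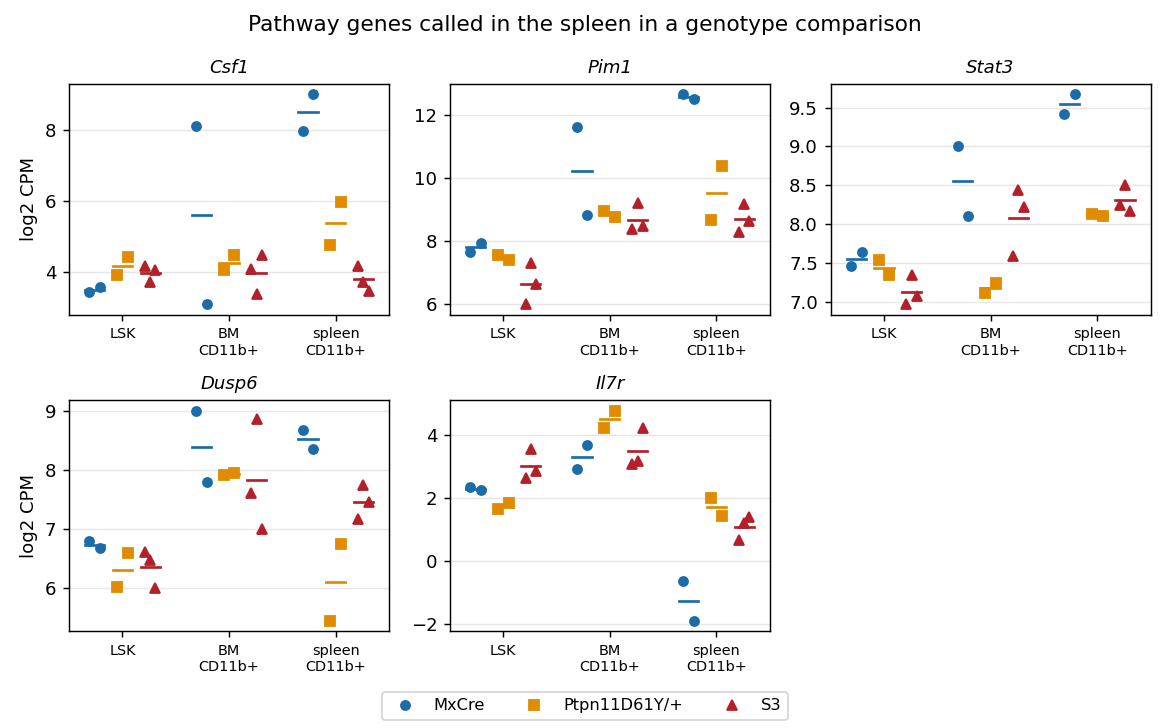
Levels (log2 CPM) of the 5 genes around the receptors that were called in the spleen in a comparison of genotypes, by fraction and genotype, with lines at the group means. In the spleen, Csf1, Pim1 and Stat3 are highest in the MxCre libraries, for Csf1 at 7.96 and 8.99 against 3.48 to 5.98 in the others, and the vertical axes differ between genes.

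Between fractions calls were frequent among all genes, with 58.4% called in BM and 59.9% in spleen CD11b+ against LSK cells, and the counts of the lists are read beside these. Against LSK cells, 9 of 15 other cytokine receptors were called higher and 2 lower in BM CD11b+ cells, and 7 higher and 3 lower in spleen CD11b+ cells (median log2 fold changes 1.10 and 0.66). The interferon-gamma receptor chain Ifngr2 was 2.73 and 3.01 higher and the IL-10 receptor chain Il10ra 1.78 and 3.32 higher in BM and spleen. Among the adaptors, kinases and phosphatases, 5 of 15 were called higher and 4 lower in the BM and 8 higher and 0 lower in the spleen, among them the Src family kinase Lyn (2.05 and 2.95) and the phosphatase Ptpn6 (2.19 and 2.51). Of the STAT and feedback genes, 5 of 10 were called higher and 3 lower in the BM, and 6 higher and 2 lower in the spleen. Stat5a was lower in both CD11b+ fractions than in LSK cells (-2.21 and -1.46), whereas Pim1 was higher (2.13 and 3.02). Of the 5 ligands tested, 4 were called higher in each CD11b+ fraction, Csf1 among them (1.26 and 2.07).

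Ptpn11 itself, whose mutation defines the model, was at 3.87 and 5.26 log2 CPM in spleen MxCre, at 5.96 and 5.14 in Ptpn11D61Y/+ and at 6.52, 5.90 and 7.13 in S3 animals 540, 815 and 640. The S3 libraries were above the MxCre libraries, and the difference of 1.88 missed the threshold (SE 0.565, adjusted p = 0.0665). The lowest value, 3.87, was that of spleen MxCre replicate 1, which had the fewest detected genes of the spleen. BM MxCre replicate 1 (4.46) and BM S3 animal 815 (4.72), also low in detected genes, had the lowest Ptpn11 of the BM CD11b+ libraries. In LSK cells it was at 6.79 and 6.86 in MxCre, at 6.002 and 5.92 in Ptpn11D61Y/+ and at 7.26, 7.12 and 7.25 in S3. The libraries labelled Ptpn11D61Y/+, with 1 silenced allele, were the lowest there, by -0.86 against MxCre (SE 0.580, adjusted p = 1). In the CD11b+ fractions the same difference was 0.64 in the BM (SE 0.579, adjusted p = 0.493) and 0.89 in the spleen (SE 0.581, adjusted p = 0.351), so that its sign differed between fractions and none passed the threshold. Counts per gene do not tell the mutant from the normal allele.

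The genes whose pattern was most like that of a receptor were sought among 8774 genes over the 21 libraries by Pearson's r of log2 CPM. As the libraries share 3 fractions, these values mostly reflect the fractions and are descriptions. Csf1r was closest to Adgre1 (r = 0.971), which encodes the macrophage antigen F4/80, and to Adgre4 (0.964) and Treml4 (0.958). Csf3r was closest to Pnpla7 (0.969), Dedd2 (0.957) and Thap6 (0.953), Il6ra to Ifngr2 (0.959), Metrnl (0.954) and Cd300a (0.947), and Il3ra to Parl (0.962), Ccdc115 (0.957) and Pdcd5 (0.957). For Csf2ra these included Arpc1b (0.947) and Stat6 (0.943), for Kit Prmt3 (0.969) and Aasdh (0.952), and for Flt3 Cbfa2t3 (0.920), Mfng (0.913) and 1700025G04Rik (0.911). Csf2rb was like Fam129a (0.915), Csf2rb2 (0.904) and Akna (0.903), and Csf2rb2 like Csf2rb, Mef2a (0.878) and Stk10 (0.850). Among the receptors themselves the closest pairs were Csf2rb and Csf2rb2 (0.904; 0.900 within the 14 CD11b+ libraries), Kit and Flt3 (0.902; 0.822), Il3ra and Il6ra (0.849; 0.737) and Csf2ra and Csf2rb (0.842; 0.808). The part of shared reads in the value of the beta chain pair was not tested.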

How the data were processed

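The authors isolated the cells by sorting (LSK) or on MACS columns (CD11b+), isolated RNA with the RNeasy Micro kit and sequenced it as paired-end reads. The submitters' processing notes name bcl2fastq 2.20.0.422, FastQC 0.11.9, Trim Galore 0.6.5 and STAR 2.5.3a, and the build is mm10 (GRCm38). The authors deposited 1 table of raw counts per Ensembl gene for each of the 21 libraries, without normalization. The counting program, annotation and use of strand are not given in the sources used here. Symbols matched 45143 identifiers and not 563.

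The tests here used edgeR 4.0.16 under R 4.3.3. After filterByExpr over the 9 groups (minimum count 10, total 15) and TMM scaling, the genes were fitted with 1 robust quasi-likelihood model of all 21 libraries with 1 coefficient per fraction and genotype (12 residual degrees of freedom). Calls are at a Benjamini-Hochberg adjusted p under 0.05 over all 19555 genes. For levels, log2 CPM was computed (prior count 2). Libraries are single sorted samples, and where no label says they came from separate animals the p-values measure the spread between libraries. Libraries of a group differed by more than counting noise in every pair.

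The 9 receptors were all named, with a log2 fold change where called or at least 1 in size. Of 4 pathway lists up to 4 called genes per comparison, and the 3 genes most alike to each receptor (mean of at least 3 log2 CPM), were named. The members and lists were chosen with earlier results of these data known. Alternatives were DESeq2 1.42.0, limma-voom (limma 3.58.1), other scalings and filters, smaller fits, fewer libraries, pooled controls and blocks. Pairing between fractions comes from the S3 animal labels; deviations from group means of libraries of 1 animal correlated between -0.096 and 0.407. By their labels, MxCre and Ptpn11D61Y/+ libraries share only a number. The test was tried on simulated counts. Some genes that these rules select are not reported here.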

Additional observations from a re-analysis of the deposited data

How the results depend on the processing

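Counts of called receptors stayed within 1.5 times the reported count in 108 of 114 fits that left out 1 library and in 113 of 128 other fits. Most comparisons had a reported count of 0, which was kept only where the count was again 0. These numbers do not say that the same receptors were called. When only the groups compared were fitted, 3 receptors were called in LSK cells of S3 against MxCre (Csf3r, Kit, Flt3), 2 of S3 against Ptpn11D61Y/+ (Il3ra, Kit) and 5 of Ptpn11D61Y/+ against MxCre (Csf1r, Csf2ra, Csf3r, Flt3, Il6ra), and 0 in the spleen of S3 against MxCre (Csf3r -3.56, adjusted p = 0.109). Csf3r in the spleen of Ptpn11D61Y/+ was then at -3.66 (adjusted p = 0.0652) and Kit was called in its place. As the shares of all genes called in these smaller fits are not given here, the receptor counts cannot be set against them. With both control genotypes as 1 group the spleen count was 0 (Csf3r -2.60, adjusted p = 0.278) and Kit turned to -0.11. DESeq2 called 1 receptor in the BM of S3 against MxCre, 2 in the spleen, 1 in LSK and 1 in BM cells of S3 against Ptpn11D61Y/+, and 2 and 3 in the BM and spleen of Ptpn11D61Y/+ against MxCre. Limma-voom and library size alone each called 2 in the latter. The shares of all genes called that are printed above are those of the main edgeR fit, and those of these alternatives are not given here. With library size alone 5 of 8 receptors were called for spleen against LSK cells, and the median of all genes shifted from -0.14 to -0.90 there, from -0.17 to -0.99 for BM against LSK cells and from 0.32 to 0.77 in the spleen of S3 against MxCre, where 72.1% in place of 36.1% of calls were higher. Without the 3 CD11b+ libraries with the fewest detected genes, MxCre replicate 2 was the only MxCre library left in either CD11b+ fraction. The interaction of Csf3r was then -3.27 for spleen against LSK cells and turned to 0.17 for BM against LSK cells. Csf3r turned to 0.58 in the BM of Ptpn11D61Y/+ against MxCre, and the interaction of Flt3 turned to 0.37 for spleen against BM.

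Leaving out 1 library gave 0 to 2 called receptors in the BM and 0 to 1 in the spleen of S3 against MxCre, 0 to 3 and 0 to 1 in the BM and spleen of Ptpn11D61Y/+ against MxCre, 5 to 7 for BM and 7 to 8 for spleen against LSK cells. Csf3r ranged from -4.03 to -2.58 in the spleen of S3 and from -4.51 to -2.77 in that of Ptpn11D61Y/+. Without BM MxCre replicate 1 the BM interaction of Csf3r turned to 0.52 (range -2.34 to 0.52), with Csf3r at 0.58 in the BM of Ptpn11D61Y/+ (range -2.29 to 0.58), and without spleen MxCre replicate 2 Csf2rb in the spleen of Ptpn11D61Y/+ turned to 0.20 (range -1.65 to 0.20). The cause of these changes was not tested.

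With the replicate number as a block, 0, 0 and 1 receptors were called in LSK, BM and spleen cells of Ptpn11D61Y/+ against MxCre (Csf3r -3.65, adjusted p = 0.0211), and 531 in place of 1000 genes in the spleen. Same-numbered libraries deviated from their group means with r between -0.0406 and -0.00185. In groups of 2 libraries both numbers give the same r, so whether these libraries share more than a number cannot be told from it. With the animal or number as a block, 6, 8 and 2 receptors were called between fractions, 0 in each interaction, and the BM interaction of Csf2ra turned to -0.38. S3 could not be paired with MxCre or Ptpn11D61Y/+ within a fraction, as it shares no replicate number with them. Of the pathway genes, Dusp6 and Stat3 lost their calls in Ptpn11D61Y/+ with the number block. Alternatives for the genes of the pathway lists were chosen after seeing the data. Groups of 2 or 3 libraries leave small changes undetectable.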
